A study of Mus musculus with 6 samples.

Results

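Spermatids carry their own set of actin-related and actin-capping proteins, and 9 genes of this kind or close to it were followed here: Actl7a, Actl7b, Actl9, Actrt2, Actrt3, Capza3, Ccin, Actl6a and Actl6b. They were found by symbol in a table of 55331 genes, each in 1 row, and 8 of the 9 had been tested by the authors. The table came from polyadenylated RNA of whole mouse testes at an age of 35 days, on a mixed strain background. The 3 control libraries carried Ptbp1fl/fl alone, and the 3 Ptbp1_cKO libraries carried Ptbp1fl/fl with Amh-Cre+/-, so both groups share the floxed alleles of Ptbp1, which encodes a splicing regulator. The Amh promoter drives Cre in Sertoli cells, the somatic cells that enclose the germ cells, and no group carried Cre without the floxed alleles. The deletion and the transgene therefore cannot be told apart. The study asked what PTBP1 does in Sertoli cells and their actin cytoskeleton, whereas 7 of the 9 genes are known as genes of spermatids.

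As the round spermatid reshapes its head, actin and actin-like proteins fill the narrow space between acrosome and nucleus, and a rigid shell, the perinuclear theca, forms around the nucleus. Actin-like proteins of the ACTL and ACTRT families belong to this shell and help to fix the acrosome to the nucleus. Capping protein is a dimer of an alpha and a beta subunit that closes the fast-growing end of actin filaments, and germ cells use an alpha subunit of their own. ACTL6A and ACTL6B are also actin-related, but they are nuclear: ACTL6A is a subunit of the BAF, INO80 and TIP60 chromatin complexes, and ACTL6B takes its place in the BAF complex of neurons.

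All values are the authors' FPKM (fragments scaled to transcript length and to library size), a scale on which levels of different genes can be compared. Each group has 1 value, made by the authors from 3 libraries, so no SD can be given and no group can be examined for overlap. Depth was read from low FPKM values, which are multiples of what 1 fragment is worth. On that reading the libraries held 66100000 to 86600000 fragments in control and 65100000 to 71900000 in Ptbp1_cKO. It holds if each group value is a mean of 3 libraries and no further scaling between libraries was applied, which is not known. Nothing in the labels ties a library to its own animal, so p-values speak for these libraries. In bulk tissue, fewer cells of a type and less RNA per cell cannot be told apart. Ptbp1 itself stood at 49.97 FPKM in control and 46.66 FPKM in Ptbp1_cKO (log2 fold change -0.10, q = 0.999 in the authors' deposited table). That value does not check the labels, since cells other than Sertoli cells also express Ptbp1 and the FPKM is that of the whole gene.

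The genes differ in structure in a way their selection did not use. Of the 7 spermatid genes, 5 are single-exon genes with 1 annotated transcript (Actl7a, Actl7b, Actl9, Actrt2 and Ccin), and 4 lie on chromosome 4. Positions are on mm10. Actl7b (chromosome 4, 56740005 to 56741443, minus strand) and Actl7a (chromosome 4, 56743413 to 56744925, plus strand) stand back to back, 1969 bp apart. Ccin lies on the same chromosome at 43983483 to 43985423 and Actrt2 at 154666433 to 154667867. Actl9 is on chromosome 17 (33432896 to 33434268), Actrt3 on chromosome 3 (30597073 to 30599939), Capza3 on chromosome 6 (140041252 to 140042778), Actl6a on chromosome 3 (32706298 to 32726973) and Actl6b on chromosome 5 (137553517 to 137569582). None is on a sex chromosome.

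The bases just upstream of the transcription start are shown for 6 spermatid genes, because 4 of them hold the same short motif there. Promoters were taken from RefSeq on GRCm38.p6, the same assembly as mm10, and 8 of the 9 genes matched an entry; Capza3 did not. Each stretch is the 100 bases before the RefSeq start, 5′ to 3′ on the gene's own strand. Capitals mark TGANGTCA, searched on both strands; this motif includes TGACGTCA, the cyclic AMP response element, and was chosen after the sequences had been read.
Actl7a, chr4:56743322-56743421, plus strand: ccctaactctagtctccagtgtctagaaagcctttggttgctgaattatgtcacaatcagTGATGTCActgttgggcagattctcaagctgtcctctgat
Actl7b, chr4:56741426-56741525, minus strand: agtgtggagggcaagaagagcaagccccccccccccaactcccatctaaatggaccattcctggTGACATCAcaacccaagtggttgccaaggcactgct
Actl9, chr17:33432799-33432898, plus strand: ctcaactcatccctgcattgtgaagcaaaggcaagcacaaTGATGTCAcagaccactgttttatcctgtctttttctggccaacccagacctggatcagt
Ccin, chr4:43983404-43983503, plus strand: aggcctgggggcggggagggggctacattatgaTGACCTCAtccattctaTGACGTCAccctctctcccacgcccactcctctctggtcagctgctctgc
Actrt2, chr4:154667868-154667967, minus strand: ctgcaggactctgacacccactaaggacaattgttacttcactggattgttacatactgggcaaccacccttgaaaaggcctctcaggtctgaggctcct
Actrt3, chr3:30599871-30599970, minus strand: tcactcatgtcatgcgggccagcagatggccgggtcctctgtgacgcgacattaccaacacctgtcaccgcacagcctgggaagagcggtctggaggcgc

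The match began at base -40 from the start in Actl7a, -36 in Actl7b, -60 in Actl9, and -67 and -50 in Ccin. The exact letters TGACGTCA stood in Ccin alone among the 8 genes. In this window of 100 bases, 4.63% of all 32851 RefSeq promoters held a match to TGANGTCA. Of the 6 spermatid genes shown, 4 held it, a share that tests nothing because the motif was picked from these sequences. The window held a match in 6 of 19 promoters of the round spermatid marker list, in 8 of 23 of the elongating spermatid list and in 0 of 8 of the Sertoli list. These are counts of promoters and not of genes, since the lists hold 16, 16 and 15 genes. The 8 Sertoli promoters cannot cover all 15 genes of that list. With so few promoters, 0 of 8 draws no contrast with the share of 4.63%. Of 22 promoters of BAF complex genes, 1 held it. In Actrt2, Actrt3, Actl6a and Actl6b these letters were not in the window. A match is a description of the sequence and says nothing about a factor bound there.

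By level, the spermatid genes fell into an upper set of 5, Ccin below it, and Actrt3 lowest. Actl7a, which encodes an actin-like protein of the theca under the acrosome, had the highest value, 280.0 FPKM in control and 278.0 FPKM in Ptbp1_cKO. Actl9, which encodes a partner of ACTL7A in the same layer, stood at 274.4 and 277.5 FPKM. The related Actrt2 stood at 274.0 and 271.3 FPKM. Without a spread between libraries, the order of these 3, or of any other neighbours in level, could not be tested.

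Capza3, the germ cell alpha subunit of capping protein, had 246.2 FPKM in control and 224.6 FPKM in Ptbp1_cKO. Actl7b, whose product belongs to the cytoskeleton of the developing spermatid, had 233.2 and 221.0 FPKM. Among the 22048 tested genes, these 5 ranked between 444 and 590 in control, so each was among the more abundant messages of the testis. Ccin encodes calicin, a kelch-type protein of the theca behind the acrosome, and had 127.1 FPKM in control and 152.6 FPKM in Ptbp1_cKO. Actrt3 was the lowest of the 7, with 42.04 and 43.03 FPKM.

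The chromatin pair stood apart from these levels. Actl6a had 44.8 FPKM in control and 40.6 FPKM in Ptbp1_cKO, close to Actrt3. Actl6b had 0.0747 and 0.0479 FPKM and was not tested by the authors. For each kb of effective length, and on the depth read above, these values correspond to 16.8 and 9.76 fragments over the 3 libraries of each group. The effective length of the gene's 9 annotated transcripts is not known, and no difference between the groups is read from these values. Actl6a thus made up nearly all of the message of the pair, with Actl6b at 0.166% of the summed FPKM of both genes in control and 0.118% in Ptbp1_cKO.

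**Figure D1:**
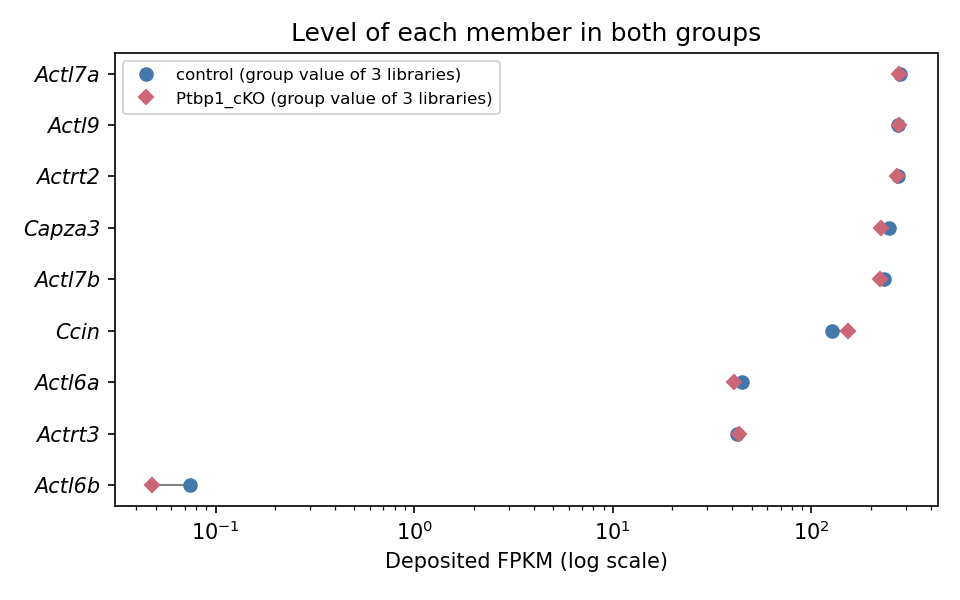
Deposited FPKM of each gene (horizontal axis, log scale) in control (circles) and Ptbp1_cKO (diamonds), 1 group value of 3 libraries each. The spermatid genes lie between 42.04 and 280.0 FPKM in control with both symbols close together, Ccin shows the widest gap among them, and Actl6b is at 0.0747 FPKM.

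None of the 8 tested genes passed q under 0.05 in Cuffdiff's test in the authors' deposited table, against 1.16% of all 22048 tested genes. At an unadjusted p under 0.05, 1 of the 8 passed, Ccin, against 8.98% of tested genes (4.38% higher and 4.59% lower). With adjustment over genes of at least 1 FPKM, 0 of the 8 passed, against 1.61% of genes. With a normal p from the statistic 0 passed as well, against 0.0863%. The median log2 fold change was -0.01 over the 8, beside 0.005 over all tested genes. Among the 7 spermatid genes 3 had a higher and 4 a lower FPKM in Ptbp1_cKO, and 4 differed by under 5%.

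Ccin was the gene with the largest difference of the 8. In Ptbp1_cKO its FPKM was 1.20 times the control value (log2 fold change 0.26), with p = 0.0093 and q = 0.253 in the authors' deposited table. A normal p computed from the statistic was 0.132 for Ccin, unadjusted. At the other end, Actl6a had a log2 fold change of -0.14 and Capza3 of -0.13, each with q = 0.999 in the authors' deposited table. The remaining log2 fold changes were -0.08 for Actl7b, -0.01 for Actl7a, -0.01 for Actrt2, 0.02 for Actl9 and 0.03 for Actrt3, all with q = 0.999 in the authors' deposited table.

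How small a difference could be seen was examined in 2 ways. Counting error was small for the single-exon genes, whose length is known, if the depth read above holds. Actl7a rested on about 79100 fragments in control and 70500 in Ptbp1_cKO, and Ccin on about 48200 and 52000. The 95% interval from counting alone ran from -0.03 to 0.004 on the log2 scale for Actl7a, from -0.09 to -0.06 for Actl7b and from 0.25 to 0.28 for Ccin. Those intervals cover counting error only and leave out the spread between libraries. The fold change divided by the deposited statistic gives the error Cuffdiff worked with, if the statistic is that ratio. It was 0.17 for Actl7a, Actl9, Actrt2 and Actl7b, 0.18 for Ccin, 0.19 for Actrt3, 0.29 for Capza3 and 0.31 for Actl6a.

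On that error, the 95% interval for Actl7a ran from 0.786 to 1.25 times the control level, and for Capza3 from 0.617 to 1.35 times. A q that missed the threshold therefore does not show equal levels. These normal intervals are not the ones behind the deposited p: for Ccin, Cuffdiff's p was 0.0093 and the normal p 0.132. Among the 2665 tested genes in the same range of control FPKM as the 7 spermatid genes, 35 (1.31%) passed the deposited threshold. The smallest difference among these 35 was that of Shcbp1, with a log2 fold change of -0.37 in the authors' deposited table. All 8 tested genes lay within that size. It is not a limit of detection, since it was taken from called genes only and the error differs between genes.

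**Figure D2:**
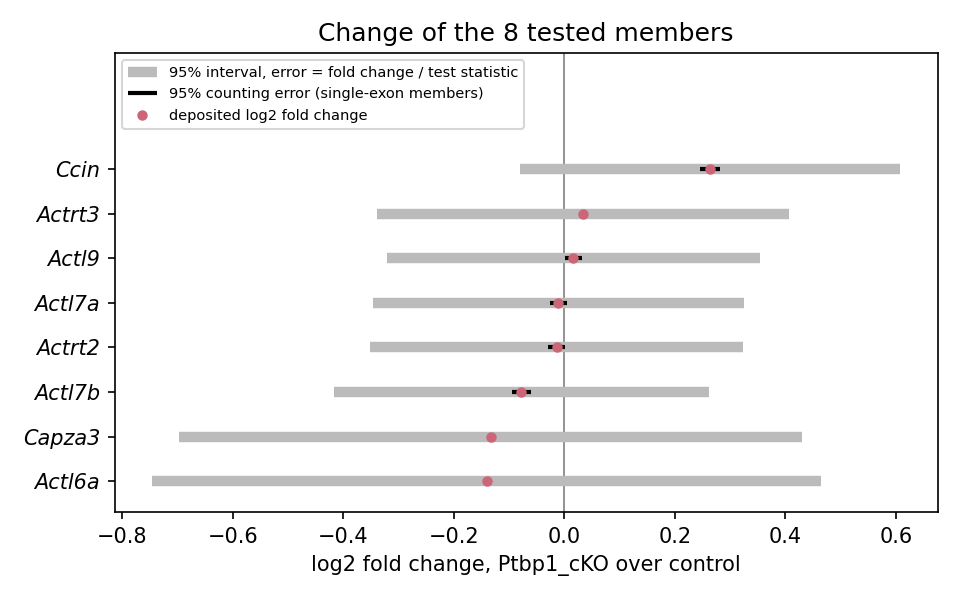
Log2 fold change of Ptbp1_cKO over control for the 8 tested genes (points), with a 95% normal interval whose error is the fold change over the test statistic (grey bars) and, for the 5 single-exon genes, the 95% counting error (black bars). Every grey bar crosses 0, while the counting interval of Ccin runs from 0.25 to 0.28. The grey bars are not the intervals behind Cuffdiff's deposited p, which was 0.0093 for Ccin.

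Neighbouring and overlapping genes bear on 3 of the values. The annotated gene Gm26657 lies antisense within Actl7b over 1308 bp and was listed at 0.190 and 0.147 FPKM, so almost all FPKM at this locus had been assigned to Actl7b. Plcz1, which encodes the sperm phospholipase that starts egg activation, overlaps Capza3 by 206 bp on the opposite strand and stood at 166.5 and 163.2 FPKM (log2 fold change -0.03, q = 0.999 in the authors' deposited table). Mrpl47, a mitochondrial ribosomal protein gene, overlaps Actl6a by 1577 bp on the opposite strand and stood at 57.0 and 59.5 FPKM. The kit keeps strand, but whether the counting used it is not given in the sources used here. Apart from Gm26657 for Actl7b, no gene shared 95% identity over 80% of the longest transcript with any of the 9. Each of the 9 genes had 10 to 68 tested neighbours within 1 Mb. Of these neighbours, 0 passed Cuffdiff's q under 0.05, against 1.16% of all tested genes.

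**Figure D3:**
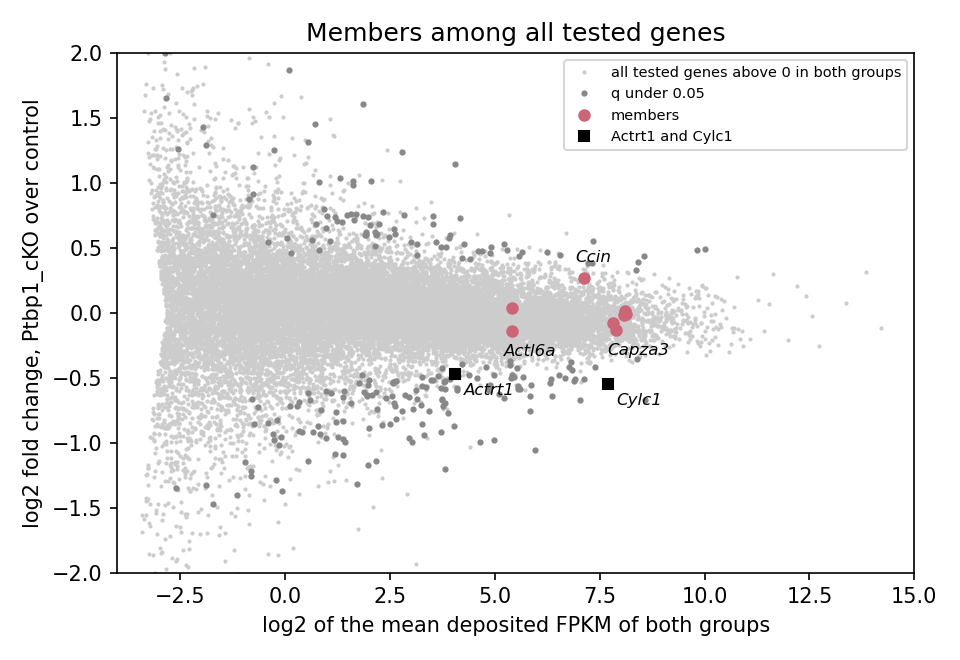
Log2 fold change (vertical axis) against the log2 of the mean FPKM of both groups (horizontal axis) for tested genes above 0 in both, with genes at q under 0.05 in dark grey, the 8 tested genes in red and Actrt1 and Cylc1 as black squares. The axes leave out 122 genes; the red points lie near 0 in the abundant range, and both squares lie lower, at -0.47 and -0.55.

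Partner genes of the perinuclear theca gave the only calls among the functional lists at the deposited q. These lists were chosen with earlier results of these data known. Their 102 distinct tested genes held 0 higher and 2 lower calls at q under 0.05, both X-linked. The shares over all tested genes were 0.458% higher and 0.703% lower. Actrt1, the X-linked relative of Actrt2 and Actrt3 (chromosome X, 46329007 to 46330345), fell from 19.3 to 13.9 FPKM (log2 fold change -0.47, q = 0.0281 in the authors' deposited table). Cylc1, which encodes cylicin, a basic protein of the theca that binds calicin (chromosome X, 111110418 to 111125854), fell from 245.1 to 167.4 FPKM (log2 fold change -0.55, q = 0.00848 in the authors' deposited table). With the normal p from the statistic, the adjusted p was 0.99995 for Actrt1 and 0.921 for Cylc1. Of the 892 tested X-linked genes 6.17% were lower at q under 0.05, against 0.473% of the 21156 others.

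Across the theca list, 0 of 13 genes were higher and 2 lower at q under 0.05, against 0.458% and 0.703% of all tested genes in these directions. At an unadjusted p under 0.05, 2 were higher and 4 lower, against 4.38% and 4.59% of all tested genes. In FPKM, 3 of the 13 were higher and 10 lower in Ptbp1_cKO, with a median log2 fold change of -0.19. Without Actrt1 and Cylc1 the median of the other 11 was -0.18. The following examples were chosen after their values were seen. The autosomal relative of Cylc1, Cylc2, had 402.8 FPKM in control and 337.4 FPKM in Ptbp1_cKO, with q = 0.387 in the authors' deposited table. Spaca1, also in the acrosome list, had 162.8 and 134.9 FPKM, with p = 0.00845 and q = 0.239 in the authors' deposited table. Pfn3 and Wbp2nl were among the 3 higher genes. Profilin 3, an actin-monomer-binding protein of spermatids encoded by Pfn3, stood at 82.2 and 87.2 FPKM. Wbp2nl, which encodes a theca protein of the sperm head, stood at 71.4 and 85.0 FPKM, with p = 0.018 and q = 0.354 in the authors' deposited table. Its log2 fold change of 0.25 was close to that of Ccin.

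Acrosome genes, of which 3 are also in the theca list, gave 0 calls among 15 by Cuffdiff's test, with a median of -0.15. At an unadjusted p under 0.05, 0 were higher and 3 lower, against 4.38% and 4.59% of all tested genes. Acrbp, whose product binds the acrosomal protease precursor, was the most abundant at 381.1 and 420.1 FPKM. Spam1, the sperm hyaluronidase, is autosomal and had 47.0 FPKM in control and 36.2 FPKM in Ptbp1_cKO. It lay just outside the threshold, with q = 0.0503 in the authors' deposited table. With adjustment over genes of at least 1 FPKM it passed, as did 1.61% of those genes. For the manchette, the microtubule skirt that shapes the sperm head, 0 of 11 listed genes passed Cuffdiff's q under 0.05, with 1 higher and 1 lower at an unadjusted p under 0.05 and a median of -0.13. Spem1 was its most abundant member, at 586.9 and 657.7 FPKM.

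The other actin-related genes held Actrt1 as their 1 lower call among 12, against 0.703% of all tested genes, with a median of -0.06. Actl11, a further actin-like gene, stood at 160.7 and 187.0 FPKM with p = 0.025 and q = 0.414 in the authors' deposited table. Actr10, a subunit of the dynactin complex, stood at 231.6 and 195.2 FPKM. Conventional actins had a higher FPKM in Ptbp1_cKO for 4 of 4 tested genes, with 0 past q under 0.05 or an unadjusted p under 0.05 by Cuffdiff's test and a median of 0.20; Acta2 and Actg2 among them are also myoid markers. Actb, the most abundant of them, stood at 281.7 and 332.4 FPKM.

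Setting the spermatid genes against their widely expressed counterparts gave ratios, for which no test was possible. The summed FPKM of the 5 actin-related genes Actl7a, Actl7b, Actl9, Actrt2 and Actrt3 was 1104 in control and 1091 in Ptbp1_cKO, and that of Actb and Actg1 was 525.2 and 594.5. Their ratio was 2.10 in control and 1.83 in Ptbp1_cKO, and most of the difference lay in the denominator, the conventional actins. Most lists of somatic cell markers had higher values in Ptbp1_cKO. Sertoli markers had a higher FPKM in 14 of 15 genes (summed FPKM 1878 and 2195). The rise of that sum rested on Clu, at 853.6 and 1199 FPKM. Clu was the 1 Sertoli marker of 15 past q under 0.05 in Cuffdiff's test, against 0.458% of all tested genes higher. At an unadjusted p under 0.05, 4 Sertoli markers were higher and 1 lower, against 4.38% and 4.59%. Ctsl was the 1 lower gene, at 396.6 and 322.5 FPKM. Myoid markers, led by Actg2 at 136.5 and 154.4 FPKM, had a higher FPKM in 6 of 7 (239.2 and 272.2). Endothelial markers, led by Egfl7 at 3.86 and 4.57 FPKM, had a higher FPKM in 6 of 6 (9.82 and 11.6) and leukocyte markers in 7 of 8 (35.9 and 49.2). Of 9 Leydig cell markers, 4 had a higher and 5 a lower FPKM in Ptbp1_cKO (median -0.10, summed 1185 and 1452 FPKM). The rise of the Leydig sum rested on Insl3, at 749.6 and 1049 FPKM. The part of the somatic cell markers in the ratio was not tested.

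Among the alpha subunits of capping protein, Capza3 held 76.8% of the summed FPKM in control and 75.2% in Ptbp1_cKO. The widely expressed Capza1 stood at 61.5 and 60.9 FPKM and Capza2 at 12.8 and 13.0 FPKM. The beta subunit gene Capzb stood at 233.7 and 267.5 FPKM, with p = 0.049 and q = 0.552 in the authors' deposited table. Gene-level values do not separate the spermatid form of the beta subunit from the others. Alpha subunits together came to 1.37 times Capzb in control and 1.12 times in Ptbp1_cKO. Over the capping list, 0 of 15 genes passed Cuffdiff's q under 0.05, and the median was 0.01. At an unadjusted p under 0.05, 1 was higher and 2 lower, against 4.38% and 4.59% of all tested genes.

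Partners of ACTL6A in chromatin complexes gave 0 calls by Cuffdiff's test. In the BAF complex list, 0 of 24 genes passed, and the median was 0.02. At an unadjusted p under 0.05, 0 were higher and 1 lower, against 4.38% and 4.59% of all tested genes. The ATPase gene Smarca2 was its most abundant member, at 224.4 and 202.4 FPKM. Dpf3, a subunit with histone-reading fingers, was the single gene at an unadjusted p under 0.05, with 41.0 and 31.2 FPKM. In the INO80 and TIP60 list, by the same test, 0 of 15 genes passed, and the median was -0.09. There, 1 gene was higher and 0 lower at an unadjusted p under 0.05. Kat5, the acetyltransferase of TIP60, stood at 98.9 and 92.7 FPKM.

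**Figure D4:**
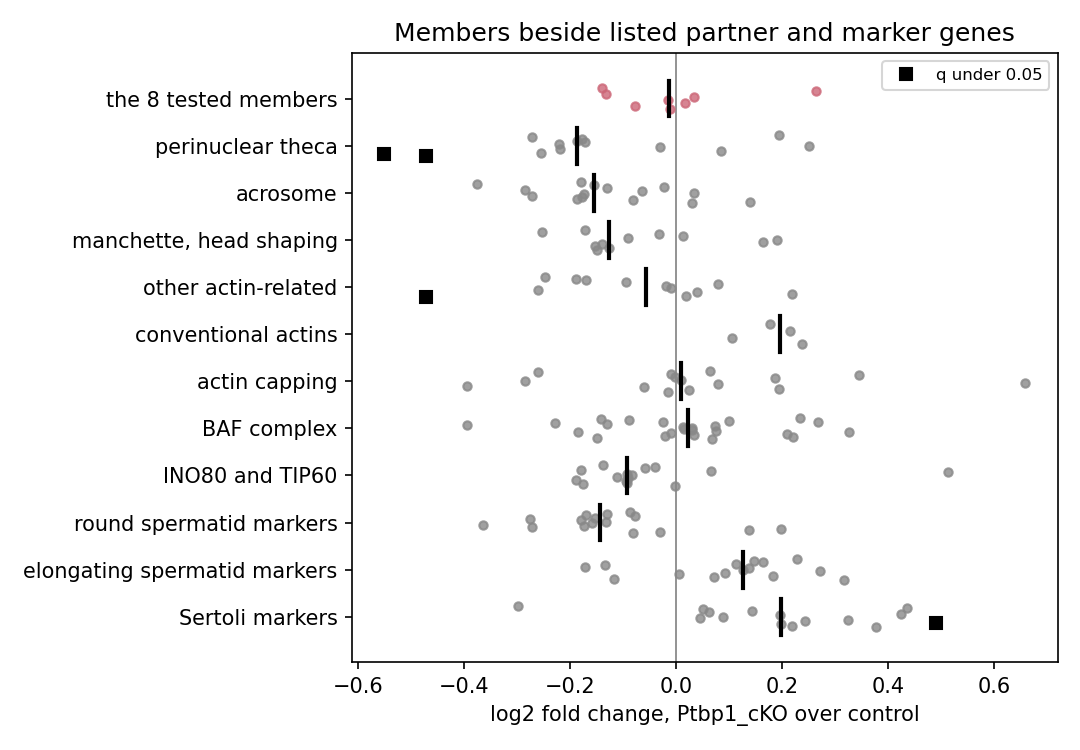
Log2 fold change of each tested gene (points) in the members and in 11 lists, with the median of each as a black bar and genes at q under 0.05 as black squares. The median of the members is at -0.01, that of round spermatid markers at -0.14 and that of elongating ones at 0.13, with ranges that overlap.

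Germ cell markers were set beside the spermatid genes as a description. Round spermatid markers had a lower FPKM in 14 of 16 genes (median -0.14, summed 2671 and 2515 FPKM), led by Tex33 at 994.5 and 942.1 FPKM. Elongating spermatid markers had a higher FPKM in 12 of 15 tested genes (median 0.13, summed 54966 and 58365 FPKM). Their most abundant gene, Tnp1, was 1 of the 3 lower ones, at 19773 and 18244 FPKM. Prm1 was higher, at 13135 and 16362 FPKM, with p = 0.0007 and q = 0.0551 in the authors' deposited table. Neither list had a gene past q under 0.05 in Cuffdiff's test. At an unadjusted p under 0.05 there were 3 lower among the round and 2 higher among the elongating markers. Of all tested genes, 4.59% were lower and 4.38% higher at that p. The median of the 7 spermatid genes was -0.01, beside 0.005 for all tested genes, and their range of -0.13 to 0.26 overlapped those of the round (-0.36 to 0.20) and elongating markers (-0.17 to 0.32). Taken relative to the round spermatid median, the log2 difference was 0.13 for Actl7a and 0.01 for Capza3, and relative to the elongating spermatid median it was -0.14 for Actl7a. Only the value of Ccin stayed above 0 on both scales among the 7, at 0.41 and 0.14. The share of spermatid stages in each testis was not measured and cannot be told apart from the level per cell.

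By likeness over the 2 group values alone, the genes nearest to Actl7a on the log2(FPKM + 1) scale were Gm36423, Agpat3 and Rpl13, at distances of 0.009, 0.024 and 0.029. Those nearest to Actl9 were H2al2a, mt-Rnr1 and Gm36423, at 0.022, 0.028 and 0.030. With 2 points per gene this says only that level and ratio were alike.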

How the data were processed

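Stranded TruSeq libraries of polyadenylated RNA were sequenced from testes, 3 per group by title. Per the submitters' processing notes, the tools included STAR 2.6.1d, Trimmomatic 0.38, bcl2fastq 2.20, Cufflinks and Cuffdiff, with mm10 as the build; for annotation release and Cuffdiff settings, no source used here gives them. For each gene the authors deposited 1 FPKM value per group. They also deposited the log2 fold change, a test statistic (a signed score), and the p-value and q-value. Of 55331 genes, 22048 had status OK. Benjamini-Hochberg adjustment of the deposited p gave the deposited q within 5.2e-07.

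Computed here with Python 3.11.15 and BLAST 2.17.0 were list counts and medians, ratios, promoter motif matches, fragment steps (length deduction 259 bp in control, 267 bp in Ptbp1_cKO) and a normal p from the statistic, for 22020 genes with a finite value. Fragment steps and adjustment were tested on simulated data. Of 250 control and 272 Ptbp1_cKO values low enough for 1 fragment, 100% lay within 1% of a step. GENCODE M21 matched 98.6% of identifiers. Alternatives were pseudocounts of 1 and 0.1, a filter at 1 FPKM, another p and other centring.

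The genes and lists were chosen with earlier results of these data known. Named were all members, per list the genes past the threshold or else the most abundant, and the nearest genes; others were chosen after their values were seen. List symbols Azi1 and Fam46c matched no row, and Odf2, Acta1, Actc1, Lcn5, Lcn8 and Spint4 were not tested. By Cuffdiff's test, higher calls were 2 of 9 spermatogonial (Kit, Uchl1), 1 of 15 Sertoli (Clu) and 1 of 9 Leydig (Insl3) markers. Higher calls were also 2 of 8 leukocyte (C1qb, Fcer1g) and 1 of 5 epididymis (Crisp1) markers. These lists had 0 lower calls. Of all tested genes, 0.458% were called higher and 0.703% lower. Crisp1 went from 0.0482 FPKM in control to 5.90 FPKM in Ptbp1_cKO. Of the 5 tested epididymis markers, 2 had a higher and 3 a lower FPKM. A difference in epididymal tissue between the groups was not tested. The spermatocyte list had 0 of 12 by Cuffdiff's test (0 at an unadjusted p under 0.05, median -0.07, Syce1 at 308.2 and 281.4 FPKM).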

Additional observations from a re-analysis of the deposited data

How the results depend on the processing

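No paired analysis was possible because the deposited table holds 1 value per group and none per library; leaving out a replicate could not be run for the same reason. The count of 0 members past the threshold was the same with the normal p from the statistic and with adjustment over genes of at least 1 FPKM, and became 1 (Ccin) at an unadjusted p. For the 102 partner genes the count was 2 at the deposited q, against 1.16% of all tested genes. With the normal p it became 0, against 0.0863%. At an unadjusted p it was 15, against 8.98%. After the filter at 1 FPKM it was 3, with the acrosome gene Spam1 added, against 1.61% of the genes kept. Without the X-linked theca genes, an alternative chosen after seeing the data, the count at the deposited q was 0. The median log2 fold change of the 8 tested members, -0.01, was 0.13 relative to round and -0.14 relative to elongating spermatid markers. The sign turned relative to round spermatid markers for Actl7a (0.13), Actl7b (0.065), Actrt2 (0.13), Capza3 (0.0097) and Actl6a (0.0022), and relative to elongating ones for Actl9 (-0.11) and Actrt3 (-0.092), by the construction of these scales. The log2 change of the ratio of the 5 actin-related genes to Actb plus Actg1 was -0.20 and to Actb alone -0.26. Actl6b had few fragments and was not tested; counting error was computed for the 5 single-exon genes only, and the spread between libraries is not known for any gene.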
